A study of Mus musculus with 12 samples.

Results

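The genes described here are 10 genes of the response to endoplasmic reticulum (ER) stress and amino acid shortage, Atf3, Atf4, Ddit3, Xbp1, Trib3, Asns, Chac1, Sesn2, Hspa5 and Herpud1, measured in mouse liver. They were taken by symbol from the array's probe sets that carry a single gene symbol, and each gene was read from its probe set with the highest mean over the 12 arrays. They are 10 of 18193 genes with such a probe set, and all 10 were among the 12755 genes bright enough to be tested. The series profiled liver RNA of BALB/c mice in acute autoimmune hepatitis of the TGF-β1 knockout, with 12 arrays in 4 groups of 3 and 1 mouse per array. The group IFNko TGFB1 KO lacks both TGF-β1 and interferon gamma. The group TGFB KO lacks TGF-β1 alone. The group INFko TGFB+ is labelled as an interferon knockout that keeps TGF-β1, and the labels do not say whether on 1 or both copies. The wild type mice are the controls, described as littermates with intact TGF-β1. The labels give no ages. The knockouts are of the whole animal as far as the labels say, so no cell type is singled out by the alleles.

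When unfolded proteins gather in the ER or amino acids run short, sensor kinases phosphorylate the initiation factor eIF2α, which lowers general translation while raising the translation of the transcription factor ATF4. ATF4 and its partners then switch on Atf3, Ddit3 (which encodes CHOP), Trib3, Asns, Chac1 and Sesn2, whereas the sensors ATF6 and IRE1 act through XBP1 and related factors on chaperones such as Hspa5 (BiP) and on genes of ER-associated degradation such as Herpud1. In liver, which secretes most plasma proteins, these pathways respond to inflammation, toxins and feeding state, and much of the regulation of ATF4 and XBP1 lies in translation and splicing, which these probe sets do not read.

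The promoters differ in which response elements they hold close to the gene's start. The stretches below are shown because they place the amino acid response core, an ER stress element or both. They do not tell the branches apart, since ATF4 acts in both kinds of stress. In windows of 250 bases before to 50 bases after each gene's start (RefSeq, GRCm38.p6), all 10 genes had a window and 5 motifs were searched on both strands. The core of the amino acid response element, TGATGNAAN, occurred in 3.95% of 32851 windows and in those of Atf3, Asns, Chac1, Trib3 and Herpud1. The ER stress response element, CCAAT and CCACG 9 bases apart, occurred in 0.119% of windows and in that of Hspa5, and its short form ERSE-II, ATTGG and CCACG 1 base apart, in 0.0365% of windows and in that of Herpud1. TGACGTGG, the core of the unfolded protein response element, was in 0.676% of windows and TGACGTCA, the cyclic AMP response element, in 1.79%, and neither was in a window of the 10 genes. In Trib3 the match is TGATGTAAA, on the reverse strand from base 14 to base 22 after the start. No motif searched was in the windows of Atf4, Ddit3, Xbp1 and Sesn2, which says only that these letters are not there. Each stretch is printed 5′ to 3′ on the gene's own strand, with the match in capitals, so a match on the reverse strand appears as its reverse complement.
Atf3, chr1:191183416-191183464, minus strand: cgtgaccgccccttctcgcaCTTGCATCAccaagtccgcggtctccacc
Asns, chr6:7693210-7693252, minus strand: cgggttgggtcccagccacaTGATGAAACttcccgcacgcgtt
Chac1, chr2:119351028-119351076, plus strand: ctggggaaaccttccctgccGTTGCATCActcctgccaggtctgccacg
Hspa5, chr2:34772005-34772063, plus strand: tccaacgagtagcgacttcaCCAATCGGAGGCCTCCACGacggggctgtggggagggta
Herpud1, chr8:94386296-94386407, plus strand: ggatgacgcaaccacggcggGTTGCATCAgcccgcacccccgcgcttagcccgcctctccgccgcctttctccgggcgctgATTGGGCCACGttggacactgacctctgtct
The Herpud1 stretch carries both kinds of element, the amino acid response core at bases -113 to -105 from the start and ERSE-II at bases -52 to -42, and is the only one of the 10 that does.

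Some arrays stand apart and bear on what follows. Tgfb1, the targeted gene, was 24.9, 52.1 and 43.8 in IFNko TGFB1 KO against 221, 164 and 180 in INFko TGFB+, and 71.2, 87.6 and 45.5 in TGFB KO against 391, 455 and 110 in wild type livers. Ifng was 83.9, 54.3 and 44.6 in IFNko TGFB1 KO against 7.56, 1.07 and 7.45 in INFko TGFB+. It was 85.9, 94.3 and 202 in TGFB KO against 23.3, 25.9 and 5.95 in wild type livers. The double knockout thus read above wild type livers. Whether the Ifng probe set lies in the disrupted part of the gene is not given, so it checks the labels neither way. The array IFNko TGFB1 KO 1 stood apart, at rank correlations of 0.754 to 0.809 with the rest, whereas pairs of the other 11 arrays reached 0.816 to 0.912. The array INFko TGFB+ 2 had a summed signal of 5228 for 5 pancreas markers, against 191 to 571 in the other 11. Where leaving out 1 of these arrays ended a call of a gene named below, or moved a value of the 10 genes by much, that is said beside it. The summed signal of 10 hepatocyte markers was 96200 to 161000 in IFNko TGFB1 KO against 165000 to 200000 in INFko TGFB+, and 140000 to 171000 in TGFB KO against 184000 to 191000 in wild type livers. The fit called 3 of the 10 lower in IFNko TGFB1 KO against INFko TGFB+ (median log2 fold change -0.66) and 0 in TGFB KO against wild type (median -0.16). Quantile normalization evens out the brightest probe sets, so the fit can understate a fall of such markers. Apoa1 had a log2 fold change of 0 in both comparisons, though its mean signal was 25800 in TGFB KO and 37600 in wild type livers. All 10 macrophage markers and all 8 T cell markers tested were higher in both knockouts of TGF-β1 than in their controls. In bulk tissue, fewer cells of a type and less RNA per cell cannot be told apart, and the part of these shifts in the results below was not tested.

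In TGFB KO livers the ATF4 target genes Atf3, Ddit3, Trib3 and Asns were called higher than in wild type livers, by 2.83 to 7.36 times. The ATF4 targets Chac1 and Sesn2 did not pass the test, at log2 fold changes of -1.12 and 0.69. Neither did the ER genes Hspa5 and Herpud1 or the factors Atf4 and Xbp1. In the mice that also lack interferon gamma, Atf3 was higher than in INFko TGFB+ and Chac1 was lower, and Ddit3, Trib3 and Asns did not pass. Values are the deposited signal in arbitrary units, fold changes are on the scale of log2(signal + 16) after quantile normalization, which understates changes of dim genes, and a gene is called where limma's Benjamini-Hochberg adjusted p over all 12755 genes is under 0.05. Errors after a fold change are standard errors.

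**Figure D1:**
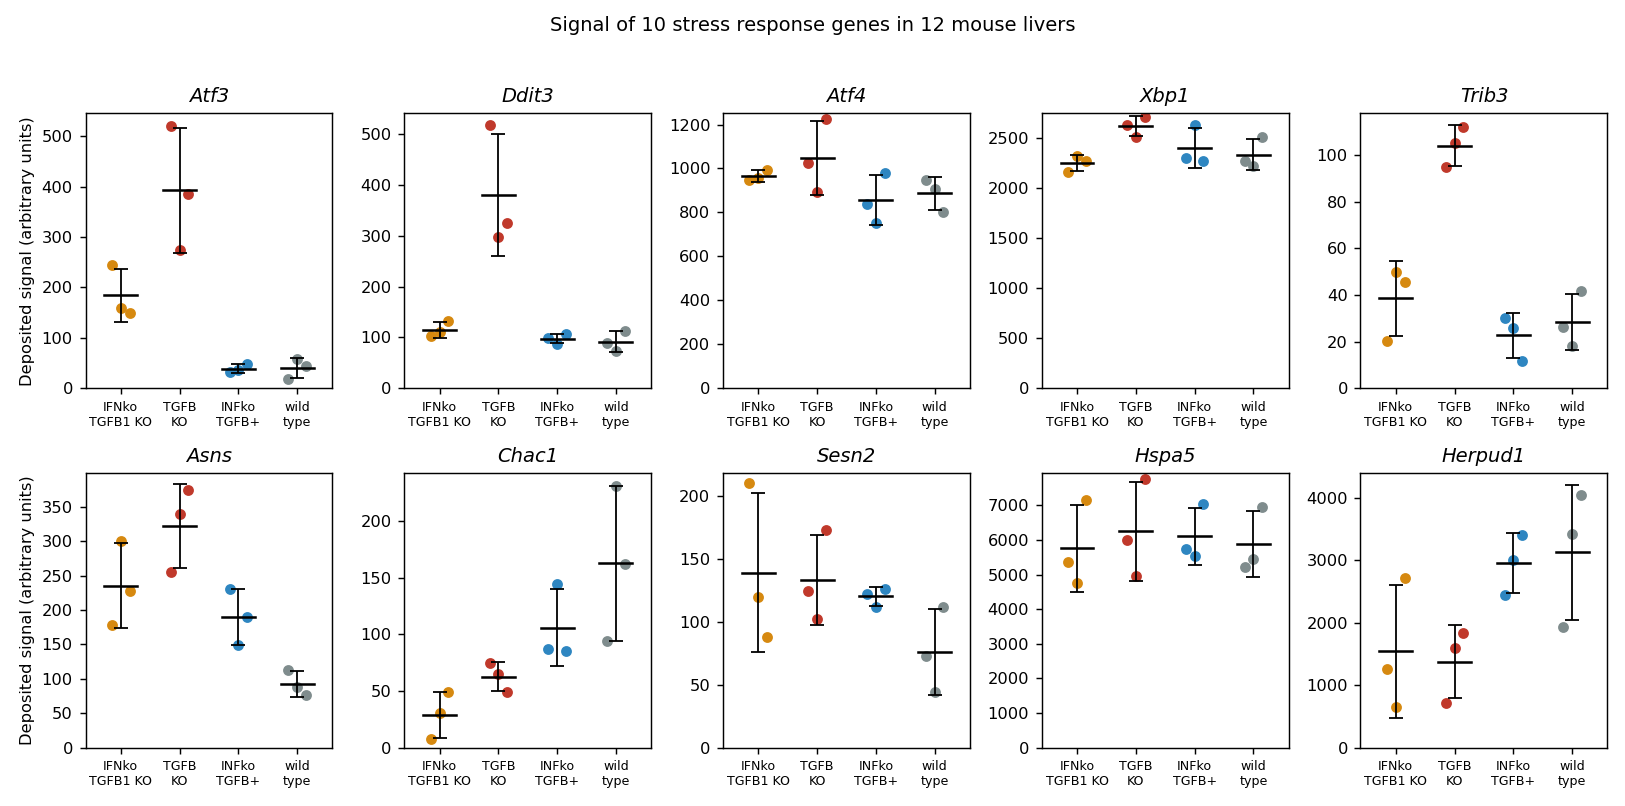
Deposited signal (arbitrary units, linear axes from 0) of the 10 genes in 12 livers; points are single mice, the horizontal bar is the group mean and the whisker the SD of 3 mice. Atf3 lies at 150 to 245 in IFNko TGFB1 KO and 273 to 521 in TGFB KO, above both control groups, and the TGFB KO points of Ddit3 and Trib3 lie above every other point of those genes.

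Between TGFB KO and wild type livers, which asks what the loss of TGF-β1 does where interferon gamma is intact, 4 of the 10 genes were called higher and 0 lower. Over all genes tested, 12.2% were called higher and 11.9% lower. At an unadjusted p under 0.05, limma gave 4 genes higher and 2 lower (Chac1 and Herpud1). Of all 12755 genes tested, 4612 passed it in either direction. The median log2 fold change of the 10 genes was 0.47, against -0.057 over all genes tested. With arrays centred on their medians in place of quantile normalization, the share of higher among all called genes was 61.8%, against 50.5%, and 4 of the 10 genes were again called.

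Atf3, a stress-induced transcription factor of the ATF and CREB family that mostly represses its targets, had the largest change of the 10. Its signal was 521, 273 and 385 in TGFB KO against 18.0, 56.9 and 43.4 in wild type livers. Every TGFB KO liver was above every wild type liver, and the log2 fold change was 2.88 ± 0.34, or 7.36-fold, with an adjusted p of 0.000143 in limma. The double knockout IFNko TGFB1 KO had 245, 158 and 150, against 33.0, 35.2 and 48.5 in INFko TGFB+. These groups did not overlap either, and the log2 fold change was 1.70 ± 0.34 (limma, adjusted p = 0.00407). Without IFNko TGFB1 KO 1, normalized anew, it was 1.51 (adjusted p = 0.0126), and without INFko TGFB+ 2 it was 1.68 (adjusted p = 0.0178). The size of the TGF-β1 effect on Atf3 differed between the interferon backgrounds by -1.18 ± 0.48, which did not pass the test (limma, adjusted p = 0.365).

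Atf3 is also an immediate early gene, so other genes of that class were set beside it. Of 11 tested, 7 were called higher in TGFB KO than in wild type and 7 were called higher in IFNko TGFB1 KO than in INFko TGFB+, with 0 lower in either, where 12.2% and 12.7% of all genes tested were higher. Median centring gave 8 and 5 higher. Fos, a component of the AP-1 factor, had log2 fold changes of 2.68 ± 0.32 in the first comparison and 2.09 ± 0.32 in the second (limma, adjusted p = 0.000149 and 0.000941). Ier3, an early gene linked to survival under stress, had 3.25 ± 0.37 and 2.10 ± 0.37 (limma, adjusted p = 9.995e-05 and 0.00197). Their part in the rise of Atf3 was not tested.

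Ddit3, whose product CHOP promotes cell death after long ER stress, rose in TGFB KO and did not pass the test in the double knockout. Its signal was 519, 297 and 325 in TGFB KO against 88.4, 72.5 and 113 in wild type livers. All 3 TGFB KO livers lay above all 3 wild type livers, and the log2 fold change was 1.77 ± 0.25 (3.40-fold; limma, adjusted p = 0.000421). Signals were 102, 111 and 133 in IFNko TGFB1 KO, against 99.4, 87.3 and 106 in INFko TGFB+. These groups overlapped, and the log2 fold change was -0.034 ± 0.25, with a 95% interval of -0.57 to 0.51. It was 0.14 with IFNko TGFB1 KO 1 left out before normalization and -0.097 without INFko TGFB+ 2. The TGF-β1 effect on Ddit3 was thus smaller without interferon gamma, by -1.80 ± 0.35 on the log2 scale (limma, adjusted p = 0.0380). This call was kept in 9 of 24 alternatives, where the adjusted p ran from 0.0149 to 0.131 and the difference from -1.97 to -1.44. It was -1.66 (adjusted p = 0.0725) when IFNko TGFB1 KO 1 was left out before normalization and -1.86 (adjusted p = 0.0882) without INFko TGFB+ 2. A dimmer probe set of Ddit3 gave 0.65 in TGFB KO against wild type (limma, adjusted p = 0.279), so the rise rests on the brighter one.

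Atf4 and Xbp1, the transcription factors above these targets, did not pass the test at the RNA level in either comparison. Atf4 was 1025, 892 and 1227 in TGFB KO against 949, 907 and 803 in wild type livers. These ranges overlapped, and the log2 fold change was 0.24 with a 95% interval of -0.14 to 0.62. Atf4 was 946, 957 and 994 in IFNko TGFB1 KO, against 839, 750 and 979 in INFko TGFB+, a log2 fold change of 0.30 ± 0.17 (limma, adjusted p = 0.227) that turned to -0.066 when arrays were centred on their medians. Xbp1 was 2633, 2514 and 2714 in TGFB KO against 2273, 2218 and 2511 in wild type livers. Every TGFB KO liver lay above every wild type liver by a narrow margin, yet the log2 fold change of 0.25 ± 0.14 did not pass (limma, adjusted p = 0.237). For IFNko TGFB1 KO the Xbp1 signal was 2166, 2318 and 2272, against 2301, 2631 and 2275 in INFko TGFB+, and the groups overlapped. The sign of this difference rested on the scaling, at 0.14 ± 0.14 after quantile normalization (limma, adjusted p = 0.503), -0.090 on the deposited scaling and -0.33 with median centring.

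Trib3, a pseudokinase that binds ATF4, CHOP and the kinase Akt and damps their action, was dim in all groups but TGFB KO. Its signal was 94.7, 105 and 112 in TGFB KO against 26.2, 17.9 and 41.5 in wild type livers. The groups did not overlap, and the log2 fold change was 1.50 ± 0.33 (2.83-fold; limma, adjusted p = 0.00672). Trib3 was 20.3, 49.7 and 45.5 in IFNko TGFB1 KO, against 30.3, 25.7 and 11.8 in INFko TGFB+. These overlapped, with a log2 fold change of 0.29 and a 95% interval of -0.44 to 1.01. It was 0.66 (limma, adjusted p = 0.118) with IFNko TGFB1 KO 1 left out before normalization and 0.38 without INFko TGFB+ 2. A second probe set gave 1.91 ± 0.40 in TGFB KO against wild type (limma, adjusted p = 0.00524). The difference of the TGF-β1 effects on Trib3 was -1.22 ± 0.47 and did not pass (limma, adjusted p = 0.325).

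Among the genes of amino acid and thiol metabolism, Asns rose in TGFB KO. Asns, which makes asparagine from aspartate and glutamine, had signals of 255, 339 and 374 in TGFB KO against 114, 88.0 and 76.5 in wild type livers. The groups did not overlap, and the log2 fold change was 1.54 ± 0.24 (2.90-fold; limma, adjusted p = 0.000779). The values were 178, 300 and 228 in IFNko TGFB1 KO, against 231, 150 and 190 in INFko TGFB+, with a log2 fold change of 0.16 ± 0.24 (limma, adjusted p = 0.661). It was 0.37 with IFNko TGFB1 KO 1 left out before normalization and 0.014 without INFko TGFB+ 2, and passed in neither. The second Asns probe set gave 0.78 ± 0.26 there (limma, adjusted p = 0.0498), so the probe sets disagree on whether Asns passed in the double knockout, and both called it higher in TGFB KO, the second at 1.41. The difference of the TGF-β1 effects on Asns was -1.38 ± 0.33 and did not pass (limma, adjusted p = 0.0970).

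Chac1, an enzyme that degrades glutathione and is among the best-known ATF4 targets, ran opposite to the 4 genes that rose. Its signal was 7.98, 30.5 and 48.8 in IFNko TGFB1 KO against 87.4, 145 and 85.1 in INFko TGFB+. The groups did not overlap, and the log2 fold change was -1.66 ± 0.43 (limma, adjusted p = 0.0144). Without INFko TGFB+ 2 it was -1.45 (adjusted p = 0.0626), no longer past the threshold, and with IFNko TGFB1 KO 1 left out before normalization it was -1.15 (adjusted p = 0.0322). In TGFB KO livers Chac1 was 74.3, 64.9 and 48.7, against 94.2, 231 and 162 in wild type livers. These groups did not overlap, yet the log2 fold change of -1.12 ± 0.43 missed the threshold (limma, adjusted p = 0.0799). It passed under 5 alternatives, among them the deposited scaling (adjusted p = 0.0473) and the fit on only the groups compared (adjusted p = 0.0373).

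Sesn2, a leucine sensor that restrains the growth kinase mTORC1, gave no stable direction. Its signal was 125, 103 and 173 in TGFB KO against 72.8, 43.9 and 112 in wild type livers, which overlapped, and the log2 fold change was 0.69 ± 0.33 (limma, adjusted p = 0.149). Sesn2 was 210, 120 and 88.1 in IFNko TGFB1 KO, against 123, 112 and 127 in INFko TGFB+, where the first group spanned the second. The log2 fold change was -0.015 ± 0.33 (limma, adjusted p = 0.978), and -0.34 with IFNko TGFB1 KO 1 left out before normalization. A second, dimmer Sesn2 probe set gave -0.064 in TGFB KO against wild type and 1.14 in IFNko TGFB1 KO against INFko TGFB+, neither past the threshold. The probe sets thus disagreed in sign in both comparisons.

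Hspa5, the main chaperone of the ER and a standard marker of ER stress, did not pass the test in either comparison. Its signal was 5999, 4959 and 7772 in TGFB KO against 5219, 5441 and 6964 in wild type livers. The log2 fold change was 0.027 with a 95% interval of -0.38 to 0.43. Hspa5 was 5355, 4747 and 7159 in IFNko TGFB1 KO, against 5750, 5522 and 7039 in INFko TGFB+, and the log2 fold change was 0.014 with an interval of -0.39 to 0.42. The groups overlapped in both comparisons.

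Herpud1, an ER membrane protein that takes part in the degradation of misfolded proteins, did not pass the test in either comparison. Its signal was 718, 1589 and 1834 in TGFB KO against 1937, 3419 and 4042 in wild type livers. No TGFB KO liver reached the lowest wild type liver, but the log2 fold change of -1.14 ± 0.49 did not pass (limma, adjusted p = 0.114). Herpud1 was 1261, 647 and 2721 in IFNko TGFB1 KO, against 2450, 3006 and 3410 in INFko TGFB+, which overlapped, at a log2 fold change of -0.96 ± 0.49 (limma, adjusted p = 0.177). Without IFNko TGFB1 KO 3, whose liver was the highest of its group, it was -1.46 (adjusted p = 0.0372). A second Herpud1 probe set gave -1.09 ± 0.42 in TGFB KO against wild type (limma, adjusted p = 0.0824). In IFNko TGFB1 KO against INFko TGFB+ it gave -1.23 ± 0.42 (limma, adjusted p = 0.0512). On that probe set the groups overlapped in neither comparison.

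**Figure D2:**
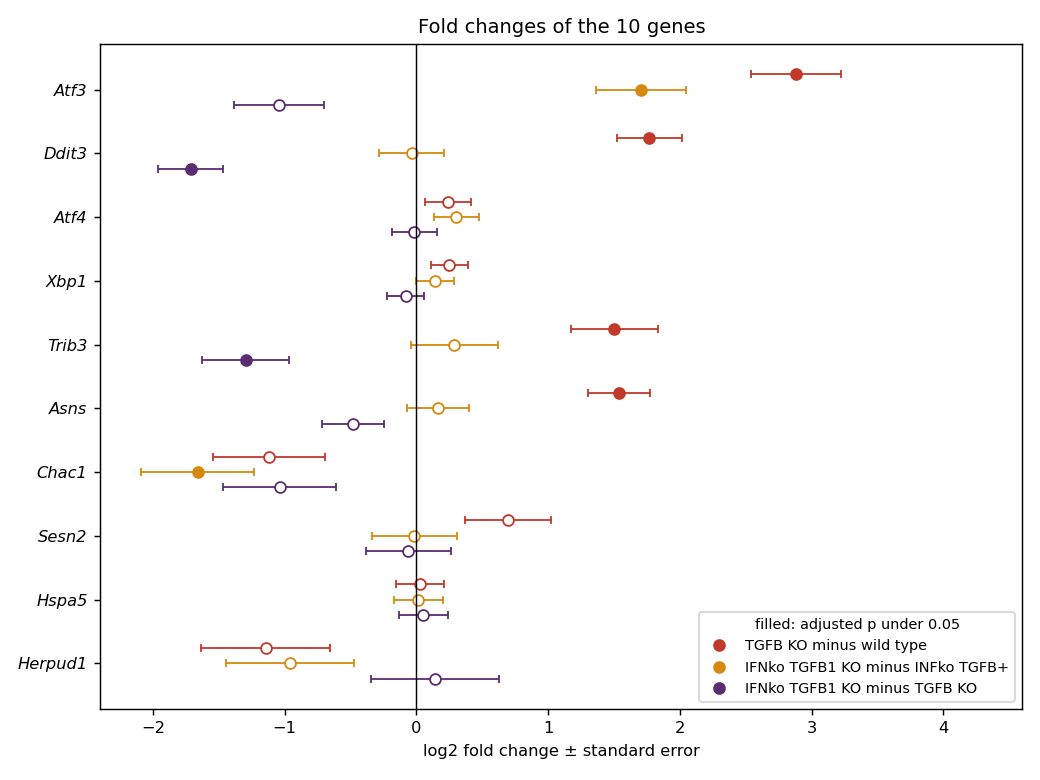
Log2 fold change (points, with standard error) of the 10 genes in 3 comparisons named in the legend; filled points have an adjusted p under 0.05 in limma. Filled points lie right of 0 for Atf3 in both knockout-against-control comparisons, and for Ddit3, Trib3 and Asns in TGFB KO minus wild type; Chac1 is filled on the left in IFNko TGFB1 KO minus INFko TGFB+.

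Between IFNko TGFB1 KO and INFko TGFB+, which asks the same of TGF-β1 where interferon is lacking, 1 of the 10 genes was called higher (Atf3) and 1 lower (Chac1). Over all genes tested 12.7% were called higher and 13.1% lower, so the share of the 10 genes is near the background. The median log2 fold change was 0.078, against -0.010 over all genes. Centring on medians moved the median of all genes to -0.15 and the share of higher among called genes to 34.6%, against 49.2%, and again called 2 of the 10. Leaving out IFNko TGFB1 KO 1 before normalization, or INFko TGFB+ 2, brought no call here for Atf4, Xbp1, Hspa5 or Herpud1. This comparison shares no array with TGFB KO against wild type.

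The difference of the TGF-β1 effects, that in interferon knockouts minus that in mice with intact interferon gamma, was called for Ddit3 alone of the 10, as lower, and for 0 as higher. Over all genes 0.243% were called higher and 0.627% lower. At an unadjusted p under 0.05, limma gave 4 of the 10 lower (Atf3, Ddit3, Trib3 and Asns, the genes that rose in TGFB KO) and 0 higher. Of all 12755 genes tested, 1510 passed that threshold in either direction. The TGFB KO and wild type arrays enter this difference too, so genes high in TGFB KO lean to lower values here. The shared direction of the 4 is thus no separate support. The median over the 10 genes was -0.63, against 0.010 over all genes. Median centring moved the median of all genes to -0.25 and put the share of higher among called genes at 8.18%, against 27.9%. Markers of other cell types were also called in this test. Of 8 stellate cell markers 4 were higher, of 8 T cell markers 1 (Cd3g, 2.01 ± 0.40), and of 7 neutrophil and monocyte markers 1 was lower (Il1b, -1.82 ± 0.36), while 0 of 10 macrophage and 0 of 10 hepatocyte markers were called. Their part in the Ddit3 difference was not tested.

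Between IFNko TGFB1 KO and TGFB KO livers, 2 of the 10 genes were called lower, Ddit3 and Trib3, and 0 higher, against 2.82% lower and 2.54% higher over all genes. At an unadjusted p under 0.05 limma gave 4 lower and 0 higher, where 2635 of the 12755 genes tested passed in either direction. This comparison shares arrays with both comparisons above, so its values are set beside theirs and are no separate support. Of the marker lists, 4 of 8 T cell, 6 of 8 stellate cell, 2 of 7 B and plasma cell and 1 of 8 endothelial markers were higher here, and 2 of 7 neutrophil and monocyte markers, Fpr2 and Il1b, were lower. Ddit3 averaged 115 ± 15.8 in IFNko TGFB1 KO and 380 ± 121 in TGFB KO (SD, n = 3 each), with no overlap. The log2 fold change was -1.71 ± 0.25 (limma, adjusted p = 0.00221), and it was -1.57 (adjusted p = 0.00888) with IFNko TGFB1 KO 1 left out before normalization. The dimmer Ddit3 probe set gave -0.90 (limma, adjusted p = 0.231), not past the threshold. Trib3 averaged 38.5 ± 15.9 in IFNko TGFB1 KO and 104 ± 8.84 in TGFB KO (SD, n = 3 each), a log2 fold change of -1.29 ± 0.33 (limma, adjusted p = 0.0454). The Trib3 call was kept in 7 of 18 alternatives, with adjusted p up to 0.126, and was lost without IFNko TGFB1 KO 1 (-0.94, adjusted p = 0.104). Atf3 averaged 184 ± 52.8 in IFNko TGFB1 KO and 393 ± 124 in TGFB KO (SD, n = 3 each), a log2 fold change of -1.04 ± 0.34 that did not pass (limma, adjusted p = 0.112). It passed with median centring (-1.23, adjusted p = 0.0402) and with a pseudocount of 64 (-0.88, adjusted p = 0.0306). Centring on medians moved the median of all genes to -0.14 and the share of higher among called genes to 20.5%, against 47.4%.

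Between INFko TGFB+ and wild type livers, limma called 0 of the 10 genes and 0% of all genes in each direction (0% higher, 0% lower). At an unadjusted p under 0.05 there were 649 of the 12755 genes, and 1 of the 10, Asns. Asns averaged 190.3 ± 40.5 in INFko TGFB+ and 92.7 ± 19.0 in wild type livers (SD, n = 3 each). The groups did not overlap, and the log2 fold change was 0.89 ± 0.24 with an unadjusted p of 0.00277 and an adjusted p of 0.910. The second Asns probe set gave 0.36.

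The order of the groups by mean signal differed between the genes. For Atf3 the order was TGFB KO, then IFNko TGFB1 KO, then both control groups, which overlapped each other. For Ddit3 and Trib3 TGFB KO stood alone and the other 3 groups overlapped. For Asns the IFNko TGFB1 KO and INFko TGFB+ livers overlapped between a higher TGFB KO mean and lower wild type livers, though 1 IFNko TGFB1 KO liver lay above the lowest TGFB KO liver. The second Asns probe set gave another order. There IFNko TGFB1 KO (179.5 to 226) lay above INFko TGFB+ (83.7 to 119.5), which overlapped wild type livers (57.1 to 126.7). For Chac1 the IFNko TGFB1 KO mean was lowest, TGFB KO came next, and the 2 control groups overlapped at the top. The 2 lower groups met: IFNko TGFB1 KO 3 and TGFB KO 3 were at 6.05 and 6.07 on the log2 scale, and at signals of 48.81 and 48.73. Chac1 did not pass between these groups (-1.04 ± 0.43; limma, adjusted p = 0.194). The log2 fold change was -0.52 (adjusted p = 0.482) with IFNko TGFB1 KO 1 left out before normalization.

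**Figure D3:**
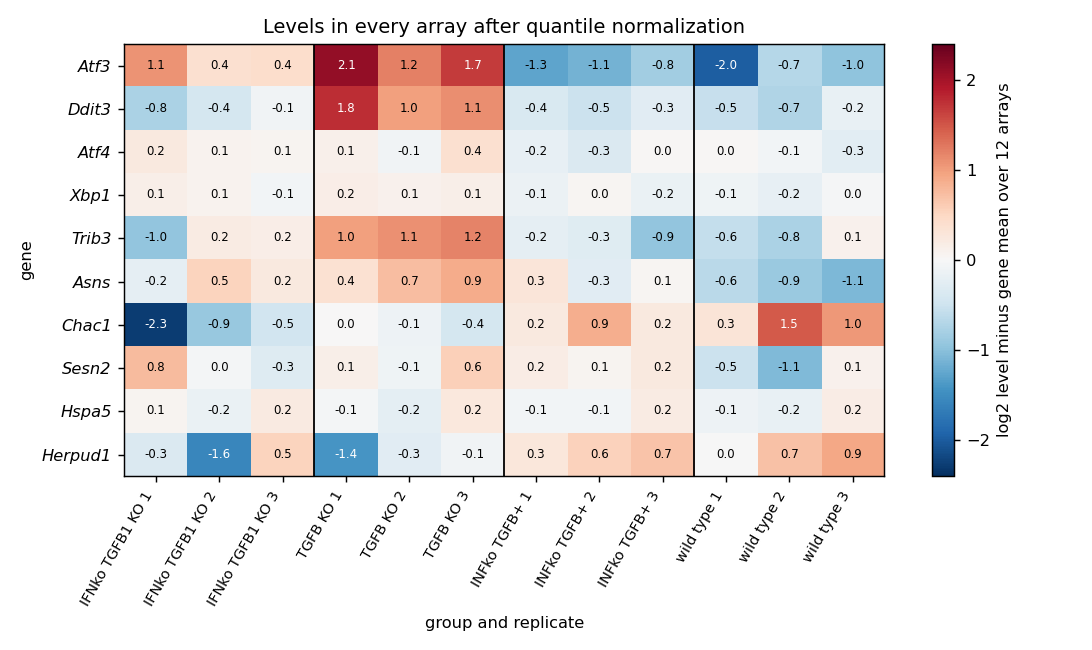
Quantile-normalized log2 level of each gene (down) in each array (across, by group and replicate), minus the gene's mean over the 12 arrays; red is above and blue below that mean. Atf3, Ddit3, Trib3 and Asns are above their mean in all 3 TGFB KO arrays, and Chac1 is lowest in IFNko TGFB1 KO 1.

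Other genes of the pathways, listed by function but with earlier results of these data known, went in both directions. Of 72 listed genes 70 had a probe set and 69 were tested. In TGFB KO against wild type 12 (17.4%) were called higher and 8 (11.6%) lower, beside 12.2% and 11.9% of all genes tested, with a median log2 fold change of 0.011. For IFNko TGFB1 KO against INFko TGFB+ these were 11 (15.9%) higher and 11 (15.9%) lower, beside 12.7% and 13.1% of all genes, and the counts were 6 and 7 without INFko TGFB+ 2, and 5 and 12 with arrays centred on their medians. The difference of the TGF-β1 effects was called for 0 of them, where limma gave 4 higher and 9 lower at an unadjusted p under 0.05. Of the 23 calls in IFNko TGFB1 KO against INFko TGFB+ on genes named from these and the other lists, 21 were kept with IFNko TGFB1 KO 1 left out before normalization and 18 without INFko TGFB+ 2. Eprs and Os9 were lost in both, and Ppp1r15a, Wars and Sdf2l1 without INFko TGFB+ 2.

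**Figure D4:**
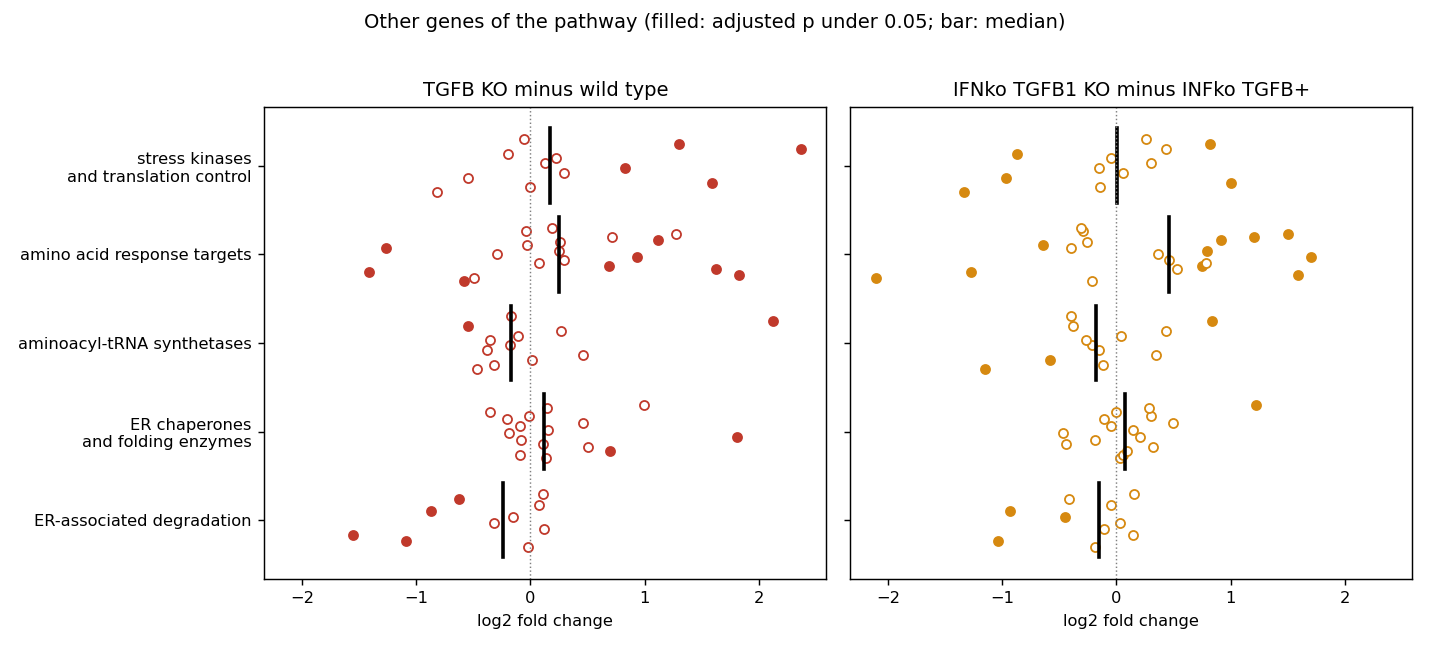
Log2 fold change of the 69 tested pathway genes, 1 point per gene, by list (down) in TGFB KO minus wild type (left) and IFNko TGFB1 KO minus INFko TGFB+ (right); filled points have an adjusted p under 0.05 in limma and the black bar is the list's median. The called genes of ER-associated degradation all lie left of 0, 4 in the left panel and 3 in the right.

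Of 12 stress kinases and regulators of translation, 4 were called higher and 0 lower in TGFB KO against wild type. Over all genes these shares were 12.2% and 11.9%. Nupr1, a stress-induced chromatin protein, was 340, 208 and 287 in TGFB KO against 41.5, 27.7 and 51.7 in wild type livers. The groups stood well apart, at a log2 fold change of 2.37 ± 0.31 (limma, adjusted p = 0.000282). Nupr1 was 54.0, 116 and 52.7 in IFNko TGFB1 KO against 39.9, 28.4 and 38.4 in INFko TGFB+, which did not pass (0.44 ± 0.31; limma, adjusted p = 0.338). Ppp1r15a (GADD34), which reverses eIF2α phosphorylation, was called higher in both, at 1.30 ± 0.21 and 0.82 ± 0.21 (limma, adjusted p = 0.00113 and 0.0144). Cebpb, a partner of ATF4 and a factor of the acute phase, was also higher in both, at 1.60 ± 0.20 and 1.01 ± 0.20 (limma, adjusted p = 0.000172 and 0.00325). In IFNko TGFB1 KO against INFko TGFB+, 2 were higher and 3 lower, beside 12.7% and 13.1% of all genes. The lower ones included the ER stress sensor Ern1 (IRE1) at -0.87 ± 0.21 and Cebpg, a further ATF4 partner, at -0.96 ± 0.24. With median centring the 2 higher calls there, Cebpb and Ppp1r15a, were not made.

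Of 19 targets of the amino acid response, 5 were called higher and 3 lower in TGFB KO against wild type, and 7 higher and 3 lower in IFNko TGFB1 KO against INFko TGFB+, where median centring gave 4 and 3. Over all genes the shares were 12.2% higher and 11.9% lower in the first comparison, and 12.7% and 13.1% in the second. Slc3a2, the heavy chain of several amino acid transporters, was higher in both, at 1.12 ± 0.20 and 0.92 ± 0.20 (limma, adjusted p = 0.00183 and 0.00556), the second call being lost with median centring. Psat1, an enzyme of serine synthesis, was 319, 530 and 340 in IFNko TGFB1 KO against 69.6, 113 and 138 in INFko TGFB+. These did not overlap, and the log2 fold change was 1.70 ± 0.24 (limma, adjusted p = 0.000555). Psat1 was also higher in TGFB KO against wild type, at 0.93 ± 0.24 (limma, adjusted p = 0.0152). Ddit4 (REDD1), an inhibitor of mTORC1, was higher in both, by 1.83 ± 0.37 in TGFB KO against wild type and 1.59 ± 0.37 in IFNko TGFB1 KO against INFko TGFB+ (limma, adjusted p = 0.00403 and 0.00832). Going the other way, Sesn3, a relative of Sesn2, was lower by -1.27 ± 0.21 in TGFB KO (limma, adjusted p = 0.00143), and Cth, which makes cysteine from cystathionine, was lower by -2.11 ± 0.43 in IFNko TGFB1 KO against INFko TGFB+ (limma, adjusted p = 0.00420).

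Of 12 aminoacyl-tRNA synthetases, 1 was called higher and 1 lower in TGFB KO against wild type, beside 12.2% and 11.9% of all genes. The higher one was Wars, the tryptophan enzyme, which is known as an interferon gamma target. Wars was 931, 669 and 626 in TGFB KO against 148, 151 and 141 in wild type livers, a log2 fold change of 2.13 ± 0.21 (limma, adjusted p = 3.718e-05). The lower one was Tars, the threonine enzyme, at -0.54 ± 0.15 (limma, adjusted p = 0.0183). In IFNko TGFB1 KO against INFko TGFB+ Wars was higher by 0.84 ± 0.21 (adjusted p = 0.0127), and Aars and Eprs, the alanine and the glutamate and proline enzymes, were lower by -1.15 ± 0.25 and -0.58 ± 0.19 (limma, adjusted p = 0.00562 and 0.0422). With median centring this call of Wars and that of Tars were not made.

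Of 16 ER chaperones and folding enzymes, 2 were called higher and 0 lower in TGFB KO against wild type, and 1 higher and 0 lower in IFNko TGFB1 KO against INFko TGFB+. Over all genes 12.2% and 11.9% were called higher and lower in the first comparison, and 12.7% and 13.1% in the second. Ero1a, the oxidase that drives disulfide formation and a known CHOP target, was 1988, 909 and 1470 in TGFB KO against 404, 410 and 327 in wild type livers. Even the lowest TGFB KO liver exceeded all wild type livers, at 1.81 ± 0.26 (limma, adjusted p = 0.000503). Ero1a was 408, 378 and 514 in IFNko TGFB1 KO against 371, 351 and 391 in INFko TGFB+, at 0.21 ± 0.26 (limma, adjusted p = 0.598). Creld2, an ER stress-induced folding factor, was higher by 0.70 ± 0.18 in TGFB KO (limma, adjusted p = 0.0168), and Sdf2l1, a partner of ER chaperones, by 1.22 ± 0.35 in IFNko TGFB1 KO against INFko TGFB+ (limma, adjusted p = 0.0241).

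Of 10 genes of ER-associated degradation, 0 were called higher in either comparison, while 4 were lower in TGFB KO against wild type and 3 in IFNko TGFB1 KO against INFko TGFB+. Over all genes 11.9% and 13.1% were lower, and with median centring the list had 3 and 4 lower. Derl2, a derlin of the export channel, was 972, 1039 and 1077 in TGFB KO against 2305, 2306 and 2255 in wild type livers. It was 871, 743 and 1122 in IFNko TGFB1 KO against 1982, 2010 and 2177 in INFko TGFB+. In both comparisons every knockout of TGF-β1 lay below every control, at -1.09 ± 0.16 and -1.04 ± 0.16 (limma, adjusted p = 0.000713 and 0.00113). Sel1l, the adaptor of the ubiquitin ligase Syvn1, was lower by -0.87 ± 0.19 and -0.93 ± 0.19 (limma, adjusted p = 0.00732 and 0.00490). Syvn1 itself was lower by -0.62 ± 0.18 in TGFB KO (limma, adjusted p = 0.0239), and Os9, a lectin of the same complex, by -0.45 ± 0.14 in IFNko TGFB1 KO against INFko TGFB+ (limma, adjusted p = 0.0311).

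Between IFNko TGFB1 KO and TGFB KO, 5 of the 69 pathway genes were called lower (7.25%) and 0 higher, beside 2.82% and 2.54% of all genes, where limma gave 13 lower and 6 higher at an unadjusted p under 0.05. They were Wars (-1.77 ± 0.21), Nupr1 (-1.93 ± 0.31), Ero1a (-1.65 ± 0.26), Cebpb (-0.86 ± 0.20) and Ero1b (-0.77 ± 0.18), the last named after its value was seen, with adjusted p between 0.000646 and 0.0314 in limma. With IFNko TGFB1 KO 1 left out before normalization, 3 were lower.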

How the data were processed

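Liver RNA of 12 BALB/c mice was extracted with Trizol and labelled by a one-cycle biotin protocol, per the labels, and hybridised to 1 array per mouse. Each array holds 45101 probe sets, and the authors deposited 1 signal intensity for each, on a linear scale. Each array's mean without its lowest and highest 2 percent was 150 in the file, so the authors had scaled the arrays before deposit. How the signal was computed is not given in the sources used here. Detection calls were not used here. Array medians were 33.8 to 42.6, and 61.3 for IFNko TGFB1 KO 1. The number of arrays limits the precision.

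A pseudocount of 16 was added, log2 taken and the arrays quantile normalized. The 64 control probe sets were left out. Of the others, 34945 carry 1 gene symbol, 932 several and 9160 none, from GEO's platform annotation, and 34741 of the first took the current symbol of their Entrez ID in RefSeq of GRCm38.p6. The brightest probe set stood for each gene, and genes under the 40th percentile (log2 5.25) were left out. Groups of 3, set by the labels, entered 1 model in limma 3.58.1 under R 4.3.3 (all 12 arrays, a mean per group, 8 residual and 3.44 prior degrees of freedom), two-sided, with Benjamini-Hochberg adjustment over 12755 genes for 5 contrasts. Nothing in the labels says that mice were littermates within a group or handled together, and replicate 1 of INFko TGFB+ was numbered in accession order. The procedure was tested on simulated data.

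Named are the 10 genes, Tgfb1 and Ifng, and in each list up to 3 genes with the smallest p past the threshold per TGF-β1 comparison. The 10 genes and the lists were chosen with earlier results of these data known. Alternatives changed the scaling, pseudocount, filter, probe set rule, array weights, samples, replicate block, sex (1 female and 2 males per group from sex-linked genes) and single arrays. Leaving out IFNko TGFB1 KO 1 before normalization was chosen after seeing the data.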

Additional observations from a re-analysis of the deposited data

Results flagged for a closer look

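The effect of TGF-β1 loss on Ddit3 differed between mice without and with interferon gamma by a test of the difference itself, -1.80 ± 0.35 on the log2 scale (limma, adjusted p = 0.0380), with log2 fold changes of -0.034 in IFNko TGFB1 KO against INFko TGFB+ and 1.77 in TGFB KO against wild type. The call was kept in 9 of 24 alternatives, with adjusted p up to 0.131 and 0.0586 with the replicate block, and a second, dimmer Ddit3 probe set gave -1.40 (adjusted p = 0.363). In the same test 4 of 8 stellate cell markers and 1 of 8 T cell markers (Cd3g) were called higher. Of 7 neutrophil and monocyte markers 1 (Il1b) was called lower. The other markers on these lists were not called. The part of these cell types in the Ddit3 difference was not tested.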

How the results depend on the processing

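For TGFB KO against wild type, the calls of Atf3, Ddit3 and Asns were kept in 19 of 19 alternatives on their probe sets and that of Trib3 in 18 of 18, as was Atf3 in IFNko TGFB1 KO against INFko TGFB+ (19 of 19) and Ddit3 in IFNko TGFB1 KO against TGFB KO (19 of 19). The filter at the 60th percentile left Trib3 untested. The 2 calls in IFNko TGFB1 KO against INFko TGFB+ became 1 to 3 on leaving out single arrays. The count for the difference of the TGF-β1 effects, 1, became 0 with a pseudocount of 1, no filter, the mean of all probe sets, the replicate block, sex as a covariate or IFNko TGFB1 KO 1 left out before normalization, and 0 to 1 without single arrays. The count in IFNko TGFB1 KO against TGFB KO, 2, became 1 with a pseudocount of 1, no filter, array weights, only the groups compared, the replicate block, sex as a covariate or IFNko TGFB1 KO 1 left out, and 1 to 2 without single arrays. It was also 1 with the filter at the 60th percentile, because Trib3 was not tested there. Atf3 was called as well in that comparison with median centring and with a pseudocount of 64. The causes were not tested. Same-numbered arrays, as deviations from their group means, correlated by 0.098, 0.065 and 0.343 in TGFB KO and wild type. The values were 0, -0.055 and -0.004 in IFNko TGFB1 KO and INFko TGFB+. Among wild type arrays, the best match of TGFB KO 3 was wild type 3. Among TGFB KO arrays, that of IFNko TGFB1 KO 3 was TGFB KO 3 (0.108). With 3 arrays per group, such values cannot tell whether the numbers pair mice. Under the replicate block in limma, Ddit3's difference had an adjusted p of 0.0586 and Trib3's fall in IFNko TGFB1 KO against TGFB KO 0.0660. Values of uncalled genes changed sign, with the cause not tested. With the second Sesn2 probe set they were -0.064 in TGFB KO against wild type, 1.14 in IFNko TGFB1 KO against INFko TGFB+, 1.21 for the difference and -1.54 in INFko TGFB+ against wild type, and with the mean of all probe sets 0.56, 0.25 and -0.44 for the last 3. Other probe sets gave Hspa5 -0.25 in TGFB KO against wild type and -0.29 in the double against the single knockout of TGF-β1. They gave Atf4 -0.18 in IFNko TGFB1 KO against INFko TGFB+, -0.58 for the difference and 0.12 in INFko TGFB+ against wild type, and Xbp1 0.23 between IFNko TGFB1 KO and TGFB KO, with -0.17 and -0.44 in INFko TGFB+ against wild type. Median centring gave, in IFNko TGFB1 KO against INFko TGFB+, Atf4 -0.066, Xbp1 -0.33 (deposited scaling -0.090) and Hspa5 -0.34, for the difference Atf4 -0.37, and in IFNko TGFB1 KO against TGFB KO Hspa5 -0.33. Without single arrays Herpud1 ran from -0.36 to 0.69 in IFNko TGFB1 KO against TGFB KO and Atf3 from -0.26 to 0.40 in INFko TGFB+ against wild type.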

Other observations

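Genes whose profiles over the 12 arrays lay nearest to those of the 10 genes, by the root mean square difference of log2 levels centred on each gene's mean, were named for the 6 genes whose group means spanned at least 1. For Ddit3 they were Bst2 (0.266), Tmem140 (0.267) and Ero1a (0.270), against a median of 0.898 over all genes tested. For Atf3 they were St6galnac4 (0.311), Ikbke (0.349) and Slc11a1 (0.352), against a median of 1.33. For Trib3 they were Adcy4 (0.313), Parp14 (0.319) and Pcgf5 (0.339), for Asns Kcnj10 (0.242), Plcl2 (0.261) and Smad6 (0.297), for Chac1 Ttc23 (0.314), Top1mt (0.329) and Kank1 (0.350), and for Herpud1 Fgf1 (0.296), BC052688 (0.303) and Klf15 (0.308). These are descriptions over 12 arrays of shared groups.

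The amino acid response core was also held by genes other than the 10. Of 280 such genes tested, 40 (14.3%) were called higher and 36 (12.9%) lower in TGFB KO against wild type in limma, against 11.9% and 12.1% of the 10288 tested genes with a window. Of 21 tested holders of the ER stress response element or ERSE-II, 1 was higher and 3 lower. Among the pathway genes the core was in the windows of Nupr1, of Fgf21, Pck2, Slc7a11 and Vldlr, and of 5 of 8 aminoacyl-tRNA synthetases with a window, while the ER stress elements were in 8 of 14 chaperones and folding enzymes, Calr, Canx, Creld2, Dnajb11, Dnajc3, Ero1b, Hsp90b1 and Pdia6, and in 2 of 9 genes of ER-associated degradation, Derl3 and Syvn1.

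Other stress classes were listed beside the 10 genes. Of 9 p53 targets tested, 3 were called higher and 0 lower in TGFB KO against wild type (12.2% and 11.9% over all genes), led by Pmaip1 (NOXA), a promoter of cell death, at 2.91 ± 0.33 (limma, adjusted p = 0.000102), and Pmaip1 was also higher in IFNko TGFB1 KO against INFko TGFB+, at 2.27 ± 0.33 (adjusted p = 0.000675). Fas, a death receptor, was lower there, at -1.57 ± 0.27 (limma, adjusted p = 0.00170), the other of 2 calls. Of 6 NRF2 targets, 2 were higher and 3 lower in TGFB KO against wild type, beside the same 12.2% and 11.9% of all genes. Hmox1, which degrades haem and is also a macrophage gene, was 3466, 1954 and 2187 in TGFB KO against 257, 182 and 197 in wild type livers (3.41 ± 0.32; limma, adjusted p = 2.609e-05), whereas Gclc, the first enzyme of glutathione synthesis, was lower at -1.54 ± 0.40 (limma, adjusted p = 0.0168).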
